A study of Mus musculus with 6 samples.

Results

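The insulin-like growth factor (IGF) binding proteins are the 7 genes Igfbp1 to Igfbp7, taken by symbol from the 41388 genes counted in mouse liver. All 7 had enough reads to be tested, among 17287 genes tested. IGF binding proteins are secreted proteins that hold IGF1 and IGF2 in plasma and tissue fluid, extend their life there and control how much reaches the IGF1 receptor, until proteases cut the binding protein and free the ligand. In liver, hepatocytes are known for Igfbp1, Igfbp2 and Igfbp4, whereas Igfbp3, Igfbp5, Igfbp6 and Igfbp7 are known mainly from stellate cells, portal fibroblasts and endothelial or Kupffer cells. These 2 classes were set from that background and not measured here, since the libraries come from whole liver, in which fewer cells of a type and less RNA per cell cannot be told apart.

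Both groups were male C57BL/6 mice with floxed Mttp alleles and a Villin Cre ERT2 transgene (Mttp f/f Villin Cre ERT2). They were 12 to 16 weeks old when the diet described below began. Mttp encodes the transfer protein with which enterocytes and hepatocytes put triglyceride on apolipoprotein B, and the Villin promoter drives Cre in intestinal epithelium, so the hepatic Mttp gene is not the target. Tamoxifen for 5 days gave the intestine-specific knockout (Mttp-IKO), and littermates given vehicle and labelled wild type served as control. From 3 weeks after injection all mice ate a methionine- and choline-deficient (MCD) diet, which induces steatohepatitis, for 3 weeks. Livers were taken after a fast of 4 h per the labels and of 4 to 6 h per the study's methods. There were 3 RNA pools per group, each of 3 to 4 mice, while the series design names 12 livers in all, and tamoxifen itself and the deletion cannot be told apart.

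Each pool held 25271585 to 36238734 reads assigned to genes. Hepatic Mttp stood at 90.4 to 186 CPM (counts scaled to library size) in control pools, against 129 to 161 CPM in Mttp-IKO pools. Hepatocyte markers were high in all 6 pools. Control pool 2 stood apart by striated muscle genes, whose summed level was 846 CPM there, 108 CPM in control pool 1 and at most 1.42 CPM in the other pools. Mttp-IKO pool 3 stood apart by short transcripts, with 1.85% of its mRNA reads on genes under 1000 nt against 4.00 to 4.30% elsewhere. No member is on the list of striated muscle genes, and whether muscle RNA adds to the level of any member was not tested. In control pool 2 Igfbp2, Igfbp4, Igfbp5 and Igfbp6 were highest among control pools, and Igfbp1, Igfbp3 and Igfbp7 lowest. Igfbp6 (1112 nt) and Igfbp7 (1213 nt) are short. Values without control pool 2 and without Mttp-IKO pool 3 are given with the results.

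The promoter windows of Igfbp1 and Igfbp7 are shown because these genes had the highest and the lowest log2 fold change among the members. Each runs from 250 bases before to 50 bases after the RefSeq start site of the GRCm38.p6 build, 5′ to 3′ along the gene. Capitals mark matches, on either strand, to TGTTTTG and TATTTTG, which are forms of the site bound by FOXO factors, and to GTTAAT, the core of the site bound by the hepatocyte factor HNF1.
Igfbp1 chr11:7197537-7197836 (+): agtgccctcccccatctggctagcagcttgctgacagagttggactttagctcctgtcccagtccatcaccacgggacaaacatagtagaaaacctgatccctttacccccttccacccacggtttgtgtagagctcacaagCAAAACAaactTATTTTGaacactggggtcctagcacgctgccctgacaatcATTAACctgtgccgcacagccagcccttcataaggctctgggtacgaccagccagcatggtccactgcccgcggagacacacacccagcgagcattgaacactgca
Igfbp7 chr5:77407996-77408295 (-): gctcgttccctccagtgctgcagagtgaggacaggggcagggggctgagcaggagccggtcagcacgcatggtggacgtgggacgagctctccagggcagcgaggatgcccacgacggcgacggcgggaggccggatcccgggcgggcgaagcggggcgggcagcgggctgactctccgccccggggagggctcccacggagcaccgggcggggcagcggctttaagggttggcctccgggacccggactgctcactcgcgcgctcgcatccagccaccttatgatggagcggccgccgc
The Igfbp1 window held TGTTTTG read on the reverse strand 108 bases before the start, TATTTTG 97 bases before it and GTTAAT on the reverse strand 56 bases before it. The first pair lies in the element through which insulin is known to repress Igfbp1. Among 32851 promoter windows of that length, 6.28% held TGTTTTG, 4.36% held TATTTTG, 0.472% held both and 7.10% held GTTAAT. The motifs did not overlap one another. The Igfbp7 window held none of these letters and was rich in G and C, at 73.3% against a median of 52.7% over all windows and 54.3% for Igfbp1. No window of Igfbp2, which has 2 annotated starts, or of Igfbp3, Igfbp4, Igfbp5 or Igfbp6 held them either. TATAAA, the TATA box core, was found in 13.6% of all windows and among the members in those of Igfbp4, 28 bases before the start, and Igfbp6, on the reverse strand 148 bases before it. A match is a description of sequence and shows no binding.

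In the livers of Mttp-IKO mice the hepatocyte and the stromal binding proteins had log2 fold changes on opposite sides of 0, although that of Igfbp6 changed sign when either of 2 pools was left out. For the hepatocyte members the median log2 fold change was 0.78 and 3 of 3 lay above 0. The stromal median was -0.47 and 0 of 4 lay above 0. Over all genes tested the median was 0.01 and 50.5% lay above 0. Igfbp7 alone passed the threshold, an adjusted p of 0.05 over all genes in edgeR's quasi-likelihood test, and it fell. In that test 0 members were called higher, and 2, Igfbp1 and Igfbp2, had a positive change with an unadjusted p under 0.05. DESeq2 called those 2 higher and Igfbp7 lower. Over all genes DESeq2 called 1995 of 17266 in either direction, against 694 of 17287 in edgeR. In all, 3 of 7 members and 23.0% of all genes had an unadjusted p under 0.05. Without Mttp-IKO pool 3 edgeR called 1 member higher (Igfbp2) and 1 lower (Igfbp7), among 864 of 17854 genes called. Without control pool 2 it called 0 members higher and 1 lower (Igfbp7), among 892 of 17784 genes called. With all pools edgeR called 3.09% of all genes lower and 0.920% higher, 4.01% in all. Igfbp1 and Igfbp2 were higher and Igfbp7 lower in each Mttp-IKO pool than in each control pool, so 3 of 7 members did not overlap between groups, against 31.0% of all genes (14.5% higher and 16.5% lower).

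**Figure D1:**
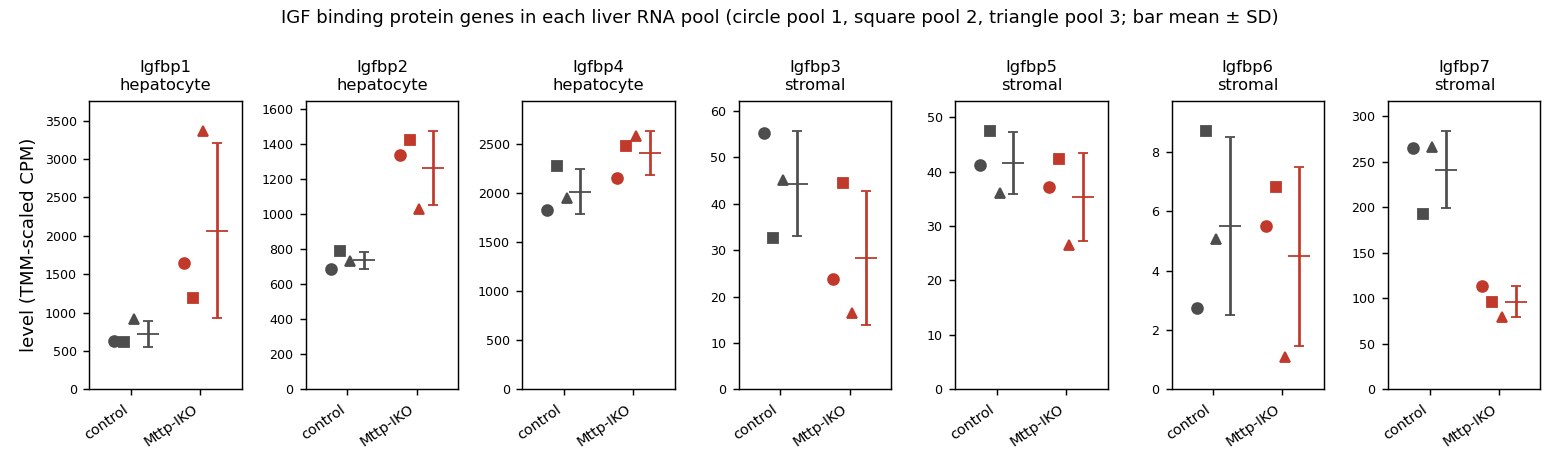
Level of each IGF binding protein gene in each liver RNA pool, in CPM scaled by the trimmed mean of M-values (TMM), on a linear axis from 0 for each gene. Grey points are control and red points Mttp-IKO pools (circle, square and triangle for pools 1, 2 and 3), and bars give mean ± SD (n = 3). Igfbp1 and Igfbp2 lie higher and Igfbp7 lower in the 3 Mttp-IKO pools with no overlap, and the other 4 genes overlap.

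Igfbp1 (ENSMUSG00000020429, chromosome 11, 7197782 to 7202546 of GRCm38, plus strand, 4 exons in the annotation used for counting) encodes the binding protein that rises on fasting and is repressed by insulin. Its level was 631, 619 and 916 CPM in control pools 1, 2 and 3 and 1648, 1193 and 3358 CPM in Mttp-IKO pools 1, 2 and 3. All Mttp-IKO pools lay above all control pools, but they differed among themselves by 2.82 times, and pool 3 was the highest. The means were 722 ± 168 CPM in control and 2066 ± 1142 CPM in Mttp-IKO pools (SD, n = 3). The log2 fold change was 1.52 (SE 0.392), and Igfbp1 missed the threshold (edgeR adjusted p = 0.0723, unadjusted p = 0.00462). Without Mttp-IKO pool 3 it was 0.98 (edgeR adjusted p = 0.0597) and without control pool 2 it was 1.39 (edgeR adjusted p = 0.158). The call is made when genes of low count are kept in the test (1.48, edgeR adjusted p = 0.0350), and by DESeq2 (1.54, adjusted p = 0.00129).

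Igfbp2 (ENSMUSG00000039323, chromosome 1, 72824503 to 72852474, plus strand, 5 exons) encodes a major circulating binding protein. It was at 688, 789 and 730.4 CPM in control pools against 1337, 1424 and 1027 CPM in Mttp-IKO pools. The control pools were close together and every Mttp-IKO pool was higher, with pool 3 the lowest of them. The means were 736 ± 50.4 and 1263 ± 208 CPM (SD, n = 3). The log2 fold change of 0.78 (SE 0.20) also missed the threshold (edgeR adjusted p = 0.0716, unadjusted p = 0.00447). It passed without Mttp-IKO pool 3 (0.91, edgeR adjusted p = 0.0231), after removal of the trend of fold change with gene length (0.94, edgeR adjusted p = 0.0277) and in DESeq2 (0.79, adjusted p = 0.00158). Without control pool 2 it was 0.81 (edgeR adjusted p = 0.133).

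Igfbp4 (ENSMUSG00000017493, chromosome 11, 99041244 to 99054392, plus strand, 8 exons) encodes a binding protein that mostly inhibits IGF action and is cut by the protease PAPP-A. By group mean it had the highest CPM of the 7 genes, although Igfbp1 exceeded it in Mttp-IKO pool 3, at 3358 CPM. Levels of Igfbp4 were 1826, 2271 and 1943 CPM in control and 2149, 2476 and 2577 CPM in Mttp-IKO pools. The groups overlapped, since control pool 2 lay above Mttp-IKO pool 1. With means of 2013 ± 231 and 2400.4 ± 224 CPM (SD, n = 3), the log2 fold change was 0.25 (SE 0.201, edgeR adjusted p = 0.486), and no difference beyond the spread between pools was found. It was 0.33 without control pool 2 and 0.20 without Mttp-IKO pool 3.

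Igfbp7 (ENSMUSG00000036256, chromosome 5, 77349240 to 77408045, minus strand, 6 exons) encodes a matrix-associated relative that binds IGFs weakly and is also known as angiomodulin. Its level was 265, 193 and 266 CPM in control pools against 114, 95.5 and 80.1 CPM in Mttp-IKO pools. The lowest control pool was well above the highest Mttp-IKO pool. Mean level fell from 241 ± 42.0 to 96.5 ± 16.9 CPM (SD, n = 3), with a log2 fold change of -1.32 (SE 0.208, edgeR adjusted p = 0.0219). Without control pool 2 it was -1.48 (edgeR adjusted p = 0.0163) and without Mttp-IKO pool 3 it was -1.20 (edgeR adjusted p = 0.0246). The call was lost when any of the other 4 pools was left out, with log2 fold changes of -1.46 to -1.27 and edgeR adjusted p of 0.0976 without control pool 1, 0.0993 without control pool 3, 0.0613 without Mttp-IKO pool 1 and 0.115 without Mttp-IKO pool 2. The number of genes called over the whole table then dropped as well, from 694 to at most 55. Among protein-coding genes of 1000 to 1300 nt the median level in Mttp-IKO pool 3 was lower than in Mttp-IKO pools 1 and 2 by a log2 ratio of -0.65, and the median log2 fold change between groups was -0.23. With the length trend removed Igfbp7 was at -1.13 (edgeR adjusted p = 0.0214). Igfbp7 shares 85 exonic bases with Polr2b on the opposite strand, and Polr2b had 1115 to 1477 reads against 1909 to 10687 for Igfbp7.

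Igfbp3 (ENSMUSG00000020427, chromosome 11, 7206086 to 7213923, minus strand, 5 exons) encodes the main carrier of plasma IGF, which forms a ternary complex with the acid-labile subunit. It was at 55.1, 32.6 and 45.0 CPM in control and 23.8, 44.4 and 16.5 CPM in Mttp-IKO pools. Mttp-IKO pool 2 lay within the control range and the other 2 Mttp-IKO pools below it. The means were 44.2 ± 11.3 and 28.2 ± 14.5 CPM (SD, n = 3), with a log2 fold change of -0.65 (SE 0.357, edgeR adjusted p = 0.319). The log2 fold change was -0.84 without control pool 2, -1.13 without Mttp-IKO pool 2 and -0.37 without Mttp-IKO pool 3.

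Igfbp5 (ENSMUSG00000026185, chromosome 1, 72857932 to 72874884, minus strand, 4 exons), whose protein binds extracellular matrix, was at 41.1, 47.4 and 36.0 CPM in control and 37.2, 42.3 and 26.5 CPM in Mttp-IKO pools. The pools overlapped except for Mttp-IKO pool 3. Means of 41.5 ± 5.70 and 35.3 ± 8.04 CPM (SD, n = 3) gave a log2 fold change of -0.23 (SE 0.204, edgeR adjusted p = 0.532). With 1 pool left out it ranged from -0.38 without Mttp-IKO pool 2 to -0.06 without Mttp-IKO pool 3, and it was -0.14 without control pool 2.

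Igfbp6 (ENSMUSG00000023046, chromosome 15, 102144362 to 102149511, plus strand, 4 exons), which prefers IGF2, was the scarcest member. It had 2.75, 8.68 and 5.06 CPM in control pools, from 111, 313 and 162 reads, and 5.51, 6.82 and 1.09 CPM in Mttp-IKO pools, from 171, 199 and 26 reads. Both groups spanned much the same range apart from the low Mttp-IKO pool 3. The log2 fold change of -0.29 (SE 0.624, edgeR adjusted p = 0.821) changed sign without control pool 2 (0.20) and without Mttp-IKO pool 3 (0.17), so no direction is given for this gene.

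**Figure D2:**
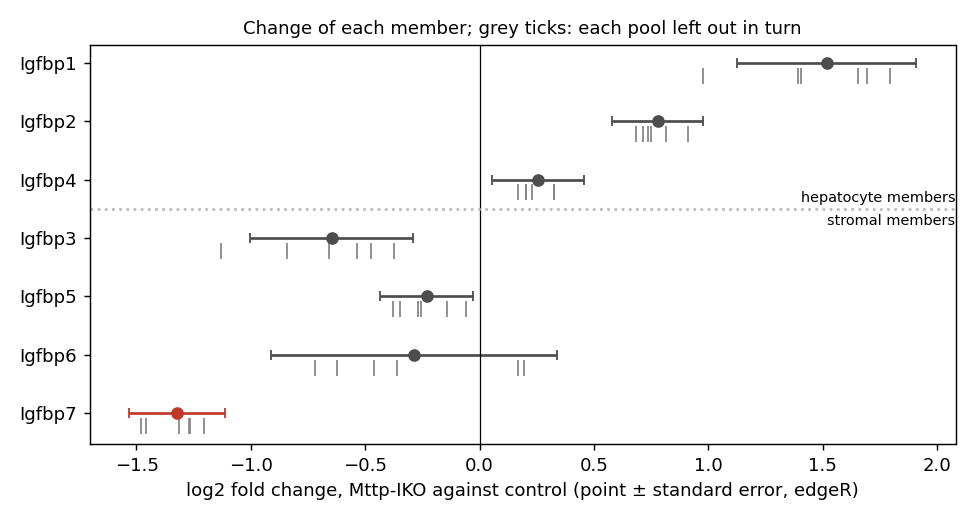
Log2 fold change of each member, Mttp-IKO over control, from edgeR, with its SE as a bar and, under it, ticks for the values after removal of each single pool. The member called at an adjusted p under 0.05 is red, and a dotted line parts the hepatocyte from the stromal members. Igfbp7 stays between -1.48 and -1.20 and Igfbp1 between 0.98 and 1.79, whereas Igfbp6 crosses 0.

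Levels of different genes were set side by side as TMM-scaled CPM per kb of annotated gene length. In control pools Igfbp1 was at 473 ± 110, Igfbp4 at 456 ± 52.2 and Igfbp2 at 398 ± 27.3 CPM per kb (SD, n = 3), and neighbours in this order overlapped between pools. Igfbp7 followed at 199 ± 34.6, apart from the genes above and below it. Igfbp3 was far lower at 14.1 ± 3.60, followed by Igfbp5 at 6.91 ± 0.948 and Igfbp6 at 4.94 ± 2.69 CPM per kb, the latter pair overlapping. In Mttp-IKO pools the order was Igfbp1 at 1355 ± 749, Igfbp2 at 684 ± 113, Igfbp4 at 544 ± 50.6, Igfbp7 at 79.5 ± 13.9, Igfbp3 at 9.02 ± 4.63, Igfbp5 at 5.88 ± 1.34 and Igfbp6 at 4.03 ± 2.70 CPM per kb. Here Igfbp1 stood above Igfbp2 in all pools, Igfbp2 and Igfbp4 overlapped, and so did the last 3 genes.

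As a share of the summed per-kb level of the 7 genes, the stromal members made up 17.0, 12.1 and 14.5% in control pools and 4.68, 4.78 and 2.24% in Mttp-IKO pools. Hepatocyte members held the rest, 85.5 ± 2.44% in control and 96.1 ± 1.44% in Mttp-IKO pools (SD, n = 3). The groups did not overlap in these shares. Most of the stromal share was Igfbp7, at 15.1, 10.4 and 13.1% in control and 3.90, 3.55 and 1.93% in Mttp-IKO pools. Igfbp1 took 28.6, 26.5 and 35.7% in control and 45.0, 35.2 and 64.4% in Mttp-IKO pools. Its highest control share overlapped the share in Mttp-IKO pool 2. Such shares sum to a whole, so a larger share of 1 member makes the shares of others smaller.

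**Figure D3:**
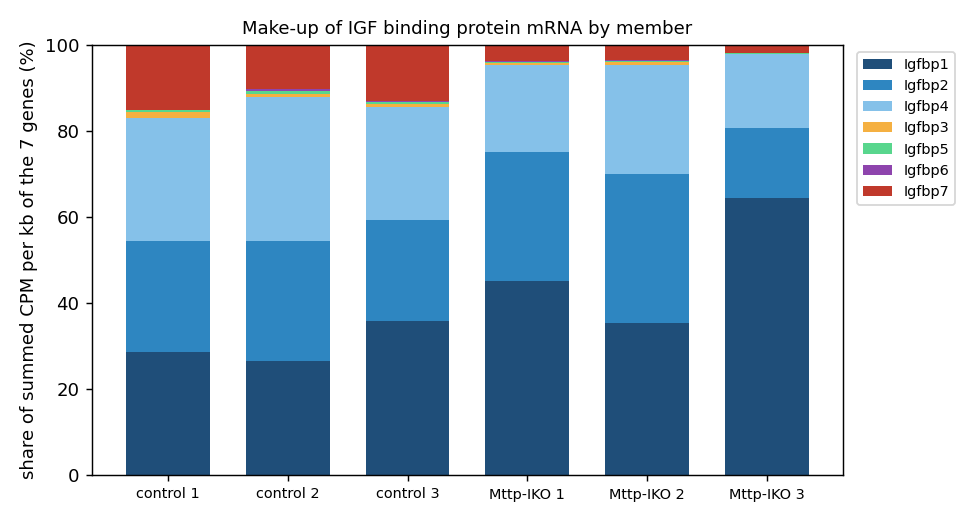
Share of each member in the summed TMM-scaled CPM per kb of the 7 IGF binding protein genes, in percent, for each of the 6 pools as stacked bars. Stromal members take 12.1 to 17.0% in control pools and 2.24 to 4.78% in Mttp-IKO pools.

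Some members of the 2 classes also sit next to each other in the genome, though Igfbp4, Igfbp6 and Igfbp7 are in no such pair. Igfbp1 on the plus strand and Igfbp3 on the minus strand of chromosome 11 end 3539 bases apart with 0 annotated genes between them, and Igfbp2 and Igfbp5 on chromosome 1 face each other in the same way across 5457 bases. A ratio of such neighbours within a pool does not depend on how libraries are scaled. Per kb, Igfbp1 exceeded Igfbp3 by 23.5, 38.9 and 41.8 times in control pools and by 142, 55.1 and 418 times in Mttp-IKO pools. Igfbp2 exceeded Igfbp5 by 54.4, 54.2 and 66.0 times in control and by 117, 110 and 126 times in Mttp-IKO pools. Neither ratio overlapped between groups. The mean log2 ratio was higher in Mttp-IKO pools by 2.14 for the former and 1.02 for the latter pair, each with a two-sided exact permutation p = 0.1 (adjusted p = 0.1 over the 2 ratios), the smallest that 3 pools against 3 can give.

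Markers of several liver cell types differed between the groups along with the members. Of 9 hepatocyte markers tested 0 were called by edgeR, 5 had an unadjusted p under 0.05 and DESeq2 called 4 higher. Their median log2 fold change was 0.70, with 7 of 9 above 0, near the 0.78 of the hepatocyte members. The 2 below 0 were Ttr and Ahsg. Ttr was lower in each Mttp-IKO pool than in any control pool (-0.55, edgeR adjusted p = 0.290), and Ahsg stood at -0.01 (edgeR adjusted p = 0.981). Summed, the hepatocyte markers were at 74175 to 110309 CPM in control and 133592 to 184929 CPM in Mttp-IKO pools. Alb, the serum albumin gene, provided most of that sum, at 40131, 69005 and 53314 CPM in control and 97241, 132236 and 84785 CPM in Mttp-IKO pools. Apob, which encodes apolipoprotein B, was at 10955, 11609 and 10842 CPM in control and 11781, 13766 and 19674 CPM in Mttp-IKO pools (0.44, edgeR adjusted p = 0.373). Within the Mttp-IKO group pool 3, which had the highest Igfbp1, had the lowest Alb and the highest Apob. That pool is poor in short transcripts, and Alb has 2043 nt against 13934 nt for Apob. Whether length enters this difference was not tested. The part of hepatocyte share in the levels of Igfbp1 and Igfbp2 was not tested.

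All 9 markers of activated stellate cells were called lower, with a median log2 fold change of -2.32 and a summed level of 377 to 1090 CPM in control and 72.7 to 85.7 CPM in Mttp-IKO pools. Col3a1, a fibrillar collagen, was at 412, 132 and 283 CPM in control and 20.1, 15.1 and 19.1 CPM in Mttp-IKO pools, and Col1a1 fell likewise (log2 fold change -3.72, edgeR adjusted p = 0.0159). Control pool 2, which held most striated muscle transcripts, had the lowest level of both collagens in its group and also the lowest Igfbp7 and Igfbp3. Igfbp5 and Igfbp6 were instead at their highest of the control pools there, at 47.4 and 8.68 CPM. Of 10 stellate cell markers 4 were called lower, with a median of -0.82 and sums of 883 to 1041 CPM in control and 639 to 742 CPM in Mttp-IKO pools. Des, of the same list, was at 19.1, 68.1 and 12.5 CPM in control pools 1, 2 and 3, so highest in the pool with most muscle transcripts. It was not called (-2.46, edgeR adjusted p = 0.0622), and whether muscle RNA adds to its level was not tested. Nes, an intermediate filament gene, fell (-1.99, edgeR adjusted p = 0.0192), and the abundant Reln and Dcn both stood at -0.44 (edgeR adjusted p = 0.235 for each). Of 9 portal fibroblast markers 3 were called lower, with a median of -1.37 and sums of 43.4 to 65.4 CPM against 13.4 to 24.6 CPM. Dpt was at -3.08 (edgeR adjusted p = 0.00656) and Fbln2 at -1.30 (edgeR adjusted p = 0.0422), while Eln was at -1.46 without being called (edgeR adjusted p = 0.0946). The log2 fold change of Igfbp7, -1.32, lay between the medians of the stellate and the activated stellate lists, and those of Igfbp3, Igfbp5 and Igfbp6 lay closer to 0 than the medians of all 3 lists.

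Of 8 recruited macrophage markers 5 were called lower, with a median of -2.53 and sums of 334 to 1033 CPM against 127 to 182 CPM, while the most abundant, Gpnmb, was not called (-2.45, edgeR adjusted p = 0.0588) and Mmp12 was (-2.74, edgeR adjusted p = 0.0306). Of 10 sinusoidal endothelial markers 0 were called by edgeR or DESeq2 and 1 had an unadjusted p under 0.05, with a median of -0.08 and sums of 710.2 to 744 CPM against 599 to 680 CPM. Of the scavenger receptor genes of these cells, Stab1 stood at -0.59 (edgeR adjusted p = 0.121), lower in each Mttp-IKO pool than in any control pool, and Stab2 at 0.15 (edgeR adjusted p = 0.697). Endothelial cells are a known source of Igfbp7 and Igfbp3. Of 8 Kupffer cell markers 1, Timd4, was called higher (1.16, edgeR adjusted p = 0.0425), 5 had an unadjusted p under 0.05, and DESeq2 called 1 higher and 1 lower. The abundant Cd5l stood at -0.74 (edgeR adjusted p = 0.214) and C1qb at -0.91 (edgeR adjusted p = 0.103). Of the 8 markers 5 lay below 0, and the median was -0.24 with sums of 447 to 697 CPM against 314 to 702 CPM. Of 7 cholangiocyte markers 0 were called by edgeR, 3 had an unadjusted p under 0.05 and DESeq2 called 1 lower (median -0.85, 71.1 to 201 CPM against 50.8 to 96.9 CPM). Of 6 mesothelial markers, a further source of Igfbp5 and Igfbp6, 0 were called by edgeR or DESeq2 and 0 had an unadjusted p under 0.05 (median -0.26, 17.4 to 29.8 CPM against 9.65 to 24.3 CPM). No marker of these lists was at 0 in all pools. How far the number of stromal or immune cells enters the levels of the stromal members was not tested.

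**Figure D4:**
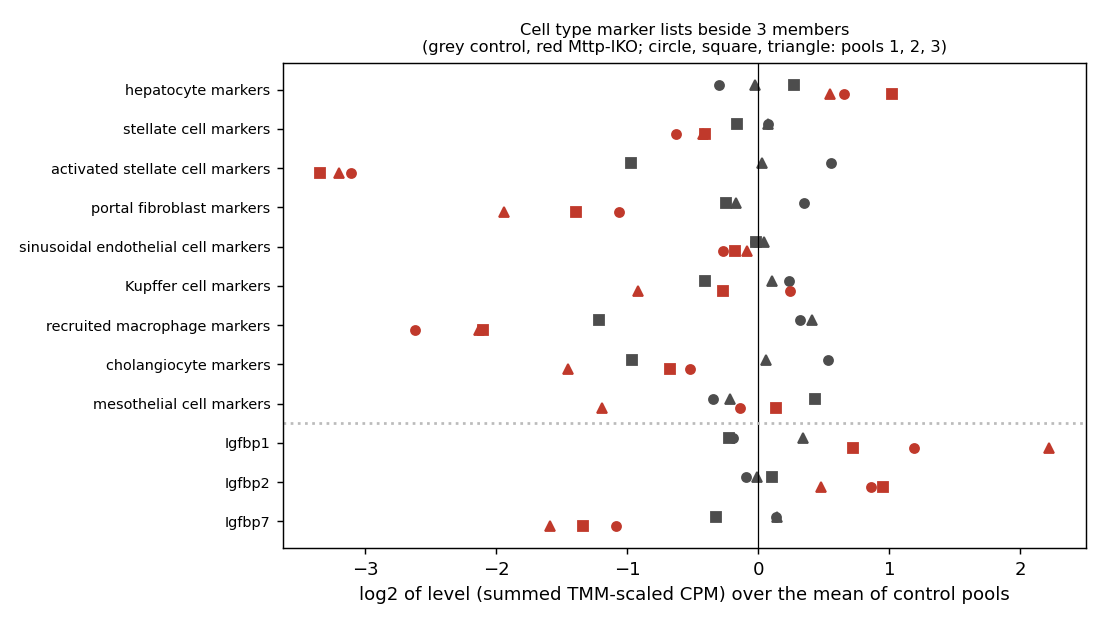
Summed level of each cell type marker list, and level of Igfbp1, Igfbp2 and Igfbp7, as log2 over the mean of the 3 control pools, for each pool (grey control, red Mttp-IKO, with circle, square and triangle for pools 1, 2 and 3). The activated stellate sums are at 72.7 to 85.7 CPM in Mttp-IKO pools against 377 to 1090 CPM in control pools, whereas the sinusoidal endothelial sums are at 599 to 680 CPM against 710.2 to 744 CPM.

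The other genes of the IGF system numbered 29, of which 25 were tested. Of these 0 were called higher and 4 lower by edgeR, 19 lay below 0 and the median log2 fold change was -0.74, whereas DESeq2 called 1 higher and 9 lower. Among the ligands, Igf1, which hepatocytes make for the circulation, was at 359, 445 and 444 CPM in control and 413, 588 and 863 CPM in Mttp-IKO pools, overlapping between groups (0.58, edgeR adjusted p = 0.258). Igf2, a fetal ligand scarce in adult mouse liver, was at 4.22, 1.39 and 2.12 CPM in control and 0.903, 1.03 and 1.17 CPM in Mttp-IKO pools (-1.32, edgeR adjusted p = 0.129). It did not overlap between groups. Neither ligand passed the threshold in edgeR, 1 of the 2 had an unadjusted p under 0.05, and DESeq2 called 1 lower.

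The receptors were not called either. Igf1r, the signalling receptor, was at -0.05 (edgeR adjusted p = 0.862). Igf2r, which clears IGF2, was at 218, 169 and 188 CPM in control and 154, 110 and 110 CPM in Mttp-IKO pools (-0.62, edgeR adjusted p = 0.119), and the insulin receptor gene Insr was at 192, 214 and 208 CPM in control and 251, 274 and 373 CPM in Mttp-IKO pools (0.55, edgeR adjusted p = 0.15). Igf2r was lower and Insr higher without overlap. Of these 3 receptors 2 had an unadjusted p under 0.05, and DESeq2 called 0. Igfals, the acid-labile subunit that joins Igfbp3 in the ternary complex, was at 39.1, 73.3 and 56.5 CPM in control and 25.1, 27.3 and 66.4 CPM in Mttp-IKO pools (-0.51, edgeR adjusted p = 0.479), with overlap.

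Proteases that cut IGF binding proteins held 3 of the 4 calls. Plau, the urokinase that activates plasminogen, fell from 13.4, 7.15 and 13.7 CPM in control to 2.10, 2.57 and 1.89 CPM in Mttp-IKO pools (-2.38, SE 0.30, edgeR adjusted p = 0.0166). Mmp2, a matrix gelatinase, fell from 17.5, 12.4 and 17.7 CPM to 4.13, 5.56 and 4.07 CPM (-1.79, edgeR adjusted p = 0.0159). Htra1, a serine protease whose own amino terminus resembles an IGF binding protein, fell from 3.82, 3.55 and 3.19 CPM to 1.16, 0.686 and 1.34 CPM (-1.73, edgeR adjusted p = 0.0306). Like that of Igfbp7, these 3 calls were lost when control pool 1 or 3 or Mttp-IKO pool 1 or 2 was left out. For all 3 genes the highest Mttp-IKO pool lay below the lowest control pool. The most abundant protease gene, Plg for plasminogen, a hepatocyte product, was at 829, 1428 and 1130 CPM in control and 1763, 2222 and 2196 CPM in Mttp-IKO pools, without overlap and without a call (0.87, edgeR adjusted p = 0.0937). Of the 9 proteases tested, 3 were called lower and 0 higher by edgeR, 7 had an unadjusted p under 0.05, and DESeq2 called 1 higher and 4 lower.

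Of 2 protease inhibitors tested, 0 were called by edgeR, 1 had an unadjusted p under 0.05 and DESeq2 called 1 lower. Timp1 stood at -1.83 (edgeR adjusted p = 0.0805) and Stc2 at -0.74 (edgeR adjusted p = 0.396). Of 8 relatives that carry an IGFBP domain, 1 was called lower by edgeR, 3 had an unadjusted p under 0.05 and DESeq2 called 3 lower. Their median log2 fold change was -1.07, with 7 of 8 below 0. In 3 of the 8 each Mttp-IKO pool lay below every control pool, against 16.5% of all genes. The gene called by edgeR was Esm1, the endothelial proteoglycan endocan. It was at 7.56, 1.39 and 5.09 CPM in control and 0.612, 0.412 and 0.252 CPM in Mttp-IKO pools (-3.43, edgeR adjusted p = 0.0340). Its call was lost when any pool other than control pool 2 was left out. Ccn2, the connective tissue growth factor gene, overlapped between groups (-0.72, edgeR adjusted p = 0.365), as did Ccn1 (-0.36, edgeR adjusted p = 0.560).

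**Figure D5:**
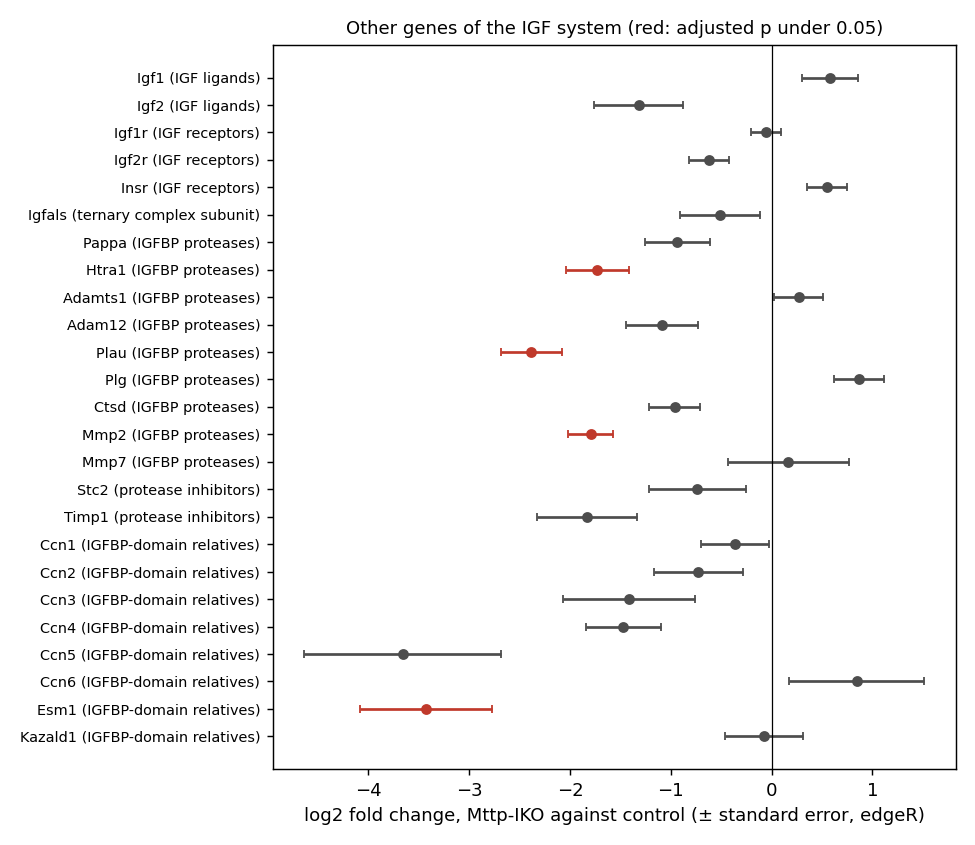
Log2 fold change of the 25 other genes of the IGF system that were tested, Mttp-IKO over control, with the SE from edgeR as a bar and the role of each gene in brackets. The 4 genes called at an adjusted p under 0.05, Plau, Mmp2, Htra1 and Esm1, are drawn in red and lie between -3.43 and -1.73.

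Igfbp1 is a known target of insulin and FOXO signalling and of amino acid shortage, which raises ATF4. Of 9 insulin and FOXO genes 0 were called by edgeR, 5 had an unadjusted p under 0.05 and DESeq2 called 1 higher, with a median of 0.46. Pck1, a gluconeogenic enzyme gene induced by FOXO1, was at 2313, 3241 and 3091 CPM in control and 2264, 3091 and 3574 CPM in Mttp-IKO pools (0.05, edgeR adjusted p = 0.933). G6pc, the glucose-6-phosphatase gene, was at 116, 181 and 285 CPM in control and 153, 275 and 484 CPM in Mttp-IKO pools (0.65, edgeR adjusted p = 0.426), and like Igfbp1 it was highest in pool 3 of each group. Srebf1, which insulin induces, was at -0.47 (edgeR adjusted p = 0.192) and Foxo3 at 0.08 (edgeR adjusted p = 0.855). Of 12 amino acid stress genes 0 were called by edgeR or DESeq2 and 1 had an unadjusted p under 0.05 (median 0.35), though edgeR called 2 higher without Mttp-IKO pool 3. Atf4 was at 86.0, 97.0 and 89.7 CPM in control and 148, 131 and 68 CPM in Mttp-IKO pools (0.35, edgeR adjusted p = 0.484). Fgf21, a hepatokine, was at 33.6, 24.4 and 30.6 CPM in control and 48.1, 73.8 and 8.01 CPM in Mttp-IKO pools (0.55, edgeR adjusted p = 0.630). Both genes were at their lowest of the 6 pools in Mttp-IKO pool 3, the pool poor in short transcripts, and Fgf21 has only 930 nt. Atf5 (-0.31, edgeR adjusted p = 0.416) and Trib3 (-0.51, edgeR adjusted p = 0.135) were not called.

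Growth hormone drives hepatic Igf1 and Igfals, and with them the complex that carries Igfbp3. Of 7 genes of its pathway 0 were called by edgeR or DESeq2 and 1 had an unadjusted p under 0.05 (median 0.01). The receptor gene Ghr was at -0.15 (edgeR adjusted p = 0.848), Stat5b at 0.01 (edgeR adjusted p = 0.977), and the feedback genes Socs2 and Socs3 at 0.69 (edgeR adjusted p = 0.315) and 0.65 (edgeR adjusted p = 0.310). TGF-beta is a known inducer of Igfbp3, Igfbp5 and Igfbp7. Of 9 genes of that response 2 were called lower by edgeR, 4 had an unadjusted p under 0.05 and DESeq2 called 3 lower. All 9 lay below 0 (median -0.35). Ltbp2, a latent TGF-beta binding protein family member, fell from 12.5, 6.10 and 10.4 CPM to 1.93, 3.02 and 2.39 CPM (-1.98, edgeR adjusted p = 0.0223), and Tgfbi, a TGF-beta-induced matrix gene, fell from 161, 107 and 156 CPM to 73.5, 74.5 and 82.1 CPM (-0.88, edgeR adjusted p = 0.0480). The receptors Tgfbr1 (-0.19, edgeR adjusted p = 0.625) and Tgfbr2 (-0.13, edgeR adjusted p = 0.662) were not called.

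For each member the protein-coding genes with the most similar profile over the 6 pools were found among 9036 genes of average log2 CPM of at least 3, by the root mean square (RMS) difference of log2 levels after each gene was centred on its own mean. This is a description of 6 pools that share 2 groups. Igfbp7, whose own RMS spread was 0.692, was closest to Plk2 (RMS difference 0.103), a polo-like kinase, then to Arhgdib (0.114) and to Neurl3 (0.118). Igfbp1, with a spread of 0.848, was closest to Pln (0.248), which encodes phospholamban, then to Thbd (0.260) for thrombomodulin and Btg2 (0.283). Igfbp2, with a spread of 0.414, was closest to Gpc1 (0.0655), which encodes the heparan sulphate proteoglycan glypican-1, then to Dqx1 (0.0945) and Hgsnat (0.0954). Igfbp3 (spread 0.589) was closest to Ifitm1 (0.20), an interferon-induced gene, and to Psmb9 (0.225) and Lfng (0.230). Igfbp4 varied little (spread 0.177) and was closest to Sin3a (0.0307), Tmprss6 (0.0321) and Polr3a (0.0395). Igfbp5 (spread 0.259) was closest to Exoc3l (0.0446), Coa7 (0.0490) and Cdk5 (0.0514), and Igfbp6 (spread 0.842) to Dpy30 (0.295), Coa6 (0.304) and Smoc2 (0.307). No member was among the closest 3 genes of another.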

How the data were processed

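RNA from whole liver was pooled by genotype, depleted of ribosomal RNA and sequenced as 6 libraries, 3 per group. The authors' processing notes name bcl2fastq, STAR 2.5.1a, Subread featureCounts 1.4.6-p5 and the build GRCm38, and the deposited files hold raw read counts per gene. The deposited CPM and RPKM columns were recomputed from those counts, matched them, and were not used further. The study's methods state that only unambiguous, uniquely aligned reads were counted. The strand setting of the counting is not given in the sources used here. Whether reads on bases shared by genes on opposite strands were counted or left out is therefore not known. Symbols came from the series table, and for 907 genes from a table of gene names.

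Counts were tested with edgeR 4.0.16 in R 4.3.3 (filterByExpr with a minimum count of 10, TMM scaling, quasi-likelihood test, no covariate), and p-values were adjusted by the Benjamini-Hochberg method over all 17287 genes tested, with a threshold of 0.05. The SE of a log2 fold change is its size divided by the square root of the F statistic. Fold changes are Mttp-IKO over control. The test was checked on simulated data. Pools are the replicates, so p-values measure the spread between pools, and the separate animals within a pool are not seen. Library totals were 25271585 to 36238734, TMM factors 0.898 to 1.11, and 0 reads allow a level of up to 0.0828 to 0.119 CPM (3 counts, counting error only). No pools of a group agreed within sampling noise. Alternatives were other scalings, filters, a replicate block, removal of the length trend (loess, span 0.3), robust dispersion, limma-voom (limma 3.58.1), DESeq2 1.42.0 and leaving out each pool.

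The named genes were all members and up to 4 genes of each pathway list (called genes first, then the most abundant). Also named were the leading genes of each cell type list, the stellate marker Des, the 2 hepatocyte markers below 0 and the 3 genes most alike to each member. The members and gene lists were chosen with earlier results of these data known. Of the 10 hepatocyte markers, Tf was not analysed here. A gene of the protease inhibitor and TGF-beta lists is not reported here and was left out of their counts. The promoter windows are RefSeq sequence of GRCm38.p6, and all 7 members matched. Figures were drawn with matplotlib 3.10.9.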

Additional observations from a re-analysis of the deposited data

How the results depend on the processing

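Igfbp7 kept its direction in all 17 alternatives and its call in 13, being lost only when control pool 1 or 3 or Mttp-IKO pool 1 or 2 was left out. Over the 6 fits that each left out 1 pool, the count of members called lower was 0 to 1 (1 with all pools), of members called higher 0 to 1 (0 with all pools), of IGF system genes called lower 0 to 6 (4 with all pools), and of all genes called 0 to 892 (694 with all pools). The count of 0, without Mttp-IKO pool 2 in edgeR, stood beside 3221 genes at an unadjusted p under 0.05. Members called higher numbered 1 without a low-count filter, 1 with a replicate block, 1 with the length trend removed and 2 in DESeq2. DESeq2 also called 1 IGF system gene higher, 9 lower and 1995 genes in all, against 428 in limma-voom. The log2 fold change of Igfbp6 reversed to 0.20 without control pool 2 and to 0.17 without Mttp-IKO pool 3, in a range of -0.72 to 0.20 over the fits without 1 pool. The within-pool log2 ratio difference ranged from 1.39 to 2.85 for Igfbp1 over Igfbp3 and from 0.97 to 1.11 for Igfbp2 over Igfbp5 when 1 pool was left out.

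Levels not divided by gene length ranked Igfbp4 at 1 in both groups, Igfbp2 at 2 and Igfbp1 at 3 in control pools, and Igfbp1 at 2, Igfbp2 at 3, Igfbp5 at 5 and Igfbp3 at 6 in Mttp-IKO pools. Scaling by total counts shifted the median log2 fold change of all genes to -0.17 and removal of the length trend to 0.12, and all 7 members kept their direction under both.

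Control and Mttp-IKO pools share only a number in their labels. Deviations of same-numbered pools correlated at 0.14, 0.11 and 0.01. Each control pool and Mttp-IKO pools 1 and 2 correlated best with their own number, whereas Mttp-IKO pool 3 correlated best with control pool 2 (0.02). With the number as a replicate block 592 genes and 1 member higher were called, Igfbp1 (edgeR adjusted p = 0.0405).

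Depth did not limit Igfbp1 to Igfbp5 or Igfbp7, which had 393 or more reads in every pool, whereas Igfbp6 had 26 reads in 1 pool.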
